A study of Drosophila melanogaster with 2 samples.

Results

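Peaks of emc-eGFP binding were described at 8 genes of growth control: the insulin receptor gene InR, the adaptor gene chico, the kinase genes Pi3K92E, Akt, Tor and S6k, and Thor and Lk6, which act on translation. These 8 genes, of 13945 protein-coding genes on 6 chromosome arms and chromosomes, were taken by name, and they were chosen by a reading of the same peak lists in which Lk6 had already stood out for the signal of 1 intronic peak. The signals that follow are therefore a description of those peaks, and no test was made on them. The material was whole Drosophila melanogaster embryos aged 0 to 24 h, males and females pooled, from the transgenic strain emc-GFP, in which the emc protein carries GFP at its C-terminus. An antibody against GFP was used for the precipitation, after sonication to fragments of 200 to 800 bp. There was 1 group of 2 biological replicates, numbered 1 and 3, and no control library was analysed here, so no comparison between conditions exists. The labels do not describe separate collections for the replicates, so the spread between them may be technical. The labels and headers do not state what drives the fusion gene or whether untagged emc is also present, and whole embryos do not show in which cells a peak was made.

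Insulin-like peptides bind the receptor encoded by InR, which recruits the adaptor Chico and the lipid kinase whose catalytic subunit is encoded by Pi3K92E. The lipid signal activates the kinase Akt, and Akt relieves the inhibition of the kinase Tor, which also reads amino acid supply and phosphorylates S6k, a kinase of ribosomal protein S6, and Thor, a repressor that holds the cap-binding protein eIF4E. Lk6 encodes a kinase of the Mnk type that phosphorylates eIF4E, so Thor and Lk6 act on the same translation factor. The protein emc has a helix-loop-helix domain without the basic region that contacts DNA, and it is known for pairing with Daughterless and other basic helix-loop-helix proteins.

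The sequences under the strongest peak of the set, under the second strongest and under the part of the Tor peak that lies between the starts of Tor and Vha68-1 are shown, because the first 2 carry the intronic signal of Lk6 and InR and the last is a promoter peak that belongs to a pair of genes at once. All are the plus strand of Release 6 (dm6), read 5′ to 3′. Capitals mark matches on either strand to an E-box (CANNTG), the GAGA repeat (GAGAG) or the GATA motif (GATAAG, which reads CTTATC on the other strand). The Lk6 peak is chr3R:11760908-11761190, the InR peak is chr3R:21590783-21590913 and the promoter stretch is chr2L:13004108-13004375. Lk6 and InR lie on the minus strand, so both run against their genes.
Lk6 intron peak: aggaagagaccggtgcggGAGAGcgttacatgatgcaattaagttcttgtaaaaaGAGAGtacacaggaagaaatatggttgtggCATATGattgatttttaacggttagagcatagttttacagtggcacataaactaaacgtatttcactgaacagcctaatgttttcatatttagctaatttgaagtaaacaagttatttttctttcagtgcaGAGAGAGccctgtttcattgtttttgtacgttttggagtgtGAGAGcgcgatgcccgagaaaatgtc
InR intron peak: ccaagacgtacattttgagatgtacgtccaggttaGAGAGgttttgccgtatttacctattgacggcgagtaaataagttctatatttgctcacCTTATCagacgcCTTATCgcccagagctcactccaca
Tor and Vha68-1 shared promoter: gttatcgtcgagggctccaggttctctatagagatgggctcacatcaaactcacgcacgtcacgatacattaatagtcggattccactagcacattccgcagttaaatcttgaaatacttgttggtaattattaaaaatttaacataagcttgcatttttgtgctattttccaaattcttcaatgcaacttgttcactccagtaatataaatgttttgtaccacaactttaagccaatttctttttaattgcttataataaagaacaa
The Lk6 sequence of 283 bp held 5 GAGAG matches, 2 of which overlap, and 1 E-box, CATATG, centred 58 bp from the summit, the base of highest signal within the peak. The InR sequence of 131 bp held 2 CTTATC matches, centred 67 and 79 bp from its summit, and 1 GAGAG match 7 bp from it. The 268 bp printed for Tor and Vha68-1 held no match to the motifs marked, and the rest of the stretch towards Tor, outside the peak, was not searched.

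The authors deposited 1 signal value per peak, which is their own and was used here only to describe and rank peaks. Their IDR list (irreproducible discovery rate, a measure of agreement of ranks between replicates) held 1865 peaks with a signal of 62.7 to 1207 and a median of 94.2. The pooled list held 29400 peaks and each replicate list 30000, and these longer lists include background regions by the authors' description. Sorted by signal, the first 1865 pooled peaks were exactly the IDR list, so having an IDR peak means here that the pooled signal reached 62.7. Over the 1854 IDR peaks found in both replicate lists, replicate 3 was higher in 81.9%, with a median log2 ratio of replicate 3 to replicate 1 of 0.44 (quartiles 0.12 and 0.82). The pooled signal was 1.00 times the sum of both replicate signals in the median, so it is not independent of them. The number of reads behind these values is unknown, since the peak lists carry none.

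In the gene body and 5 kb on each side, 9 IDR peaks, 82 pooled peaks, 61 peaks of replicate 1 and 88 peaks of replicate 3 were found at the 8 genes. Lk6 had by far the strongest peak, InR followed, and Thor, Tor, Akt and Pi3K92E each had 1 peak near the lower end of the IDR list. S6k and chico had none in it. An IDR peak was present at 6 of the 8 genes, against 29.0% of all protein-coding genes by the same rule. The windows of these genes were longer (median 17.6 kb) than those of all genes (median 12.2 kb). Among genes with windows over 15.0 kb, a quartile split chosen after seeing the data, 5 of 6 of these genes had an IDR peak, against 38.8% of all 3486 genes. An IDR summit lay within 1000 bp of a start site of 5 of the 8 genes (InR, Pi3K92E, Tor, Thor and Lk6), against 12.4% of all genes. Counting only peaks whose nearest start site was the gene's own left 4 of the 8 genes (InR, Pi3K92E, Thor and Lk6), against 10.2% of all genes. The count depended on the replicate used: with as many top-ranked peaks of replicate 3 alone, 4 genes had a peak in the window (InR, Akt, Thor and Lk6), and of replicate 1 alone 7, all but chico, against 28.9% of all genes for replicate 3 and 29.0% for replicate 1.

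**Figure D1:**
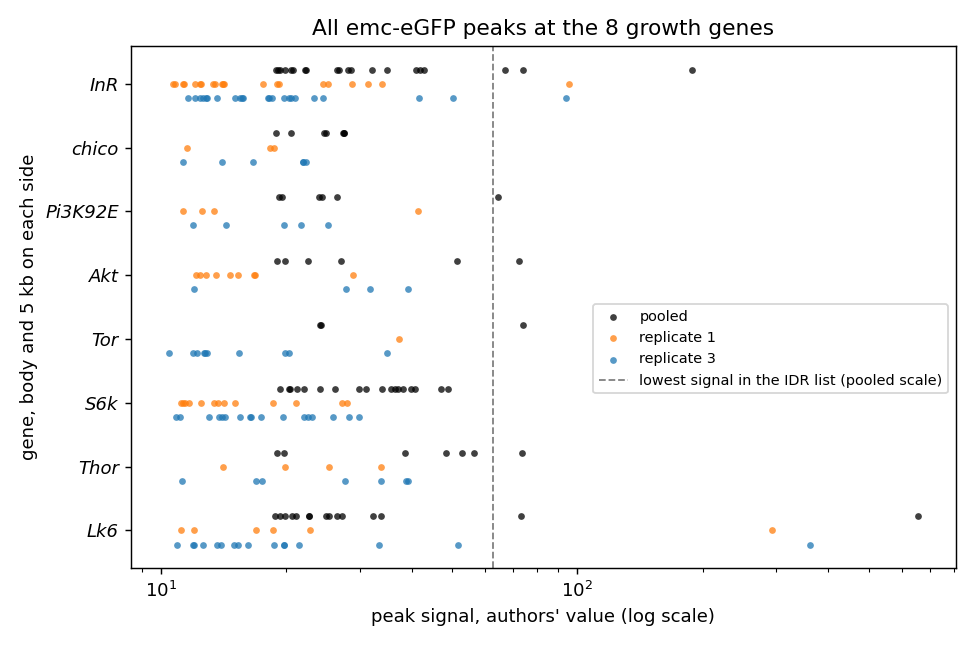
Signal of every peak (log scale, horizontal axis) in the gene body and 5 kb on each side of the 8 genes (rows), for the pooled list and the lists of replicates 1 and 3. Pooled signals are about the sum of both replicates, and the dashed line is the lowest IDR signal, 62.7, on the pooled scale. The Lk6 peak of 657 stands alone on the right, and S6k has 18 pooled peaks that all lie left of the line.

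Lk6 (FBgn0017581, chromosome 3R from 11750931 to 11764457, minus strand) had its strong peak inside the gene. The peak spanned 11760908 to 11761190 and had a pooled signal of 657, rank 8 of the IDR list. Its signal was 293 (rank 9) in replicate 1 and 362 (rank 10) in replicate 3, and the summit was at base 11761054 in both, 0 bp apart. Thus both replicates placed it at the same base and nearly the same rank. Over all IDR peaks the summits of the replicates lay a median of 27 bp apart, and in 1.83% of them at the same base. Strong peaks in general had close summits, within 10 bp at 12 of the 20 strongest IDR peaks, against 23.9% of those found in both lists. The log2 ratio of replicate 3 to replicate 1 was 0.30, within the quartiles of all IDR peaks.

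The gene has start sites at 11764457 and 11760079. The summit lay 3403 bp downstream of the first, in intron 1 of 5 of transcript FBtr0082534, which is 6991 bp long, and 975 bp upstream of the second. A peak counted as intronic by 1 transcript is thus upstream of the start of the other. Among the 528 intronic IDR peaks, all over 500 bp from any start site, it ranked 3 in signal. Its signal was 7.27 times the median of these peaks, which was 90.3.

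The other IDR peak of Lk6 was at its first promoter, from 11764347 to 11764726, with the summit 80 bp upstream of the start. Its pooled signal was 73.1 (rank 1420), with 22.8 (rank 2980) in replicate 1 and 51.8 (rank 1040) in replicate 3. Here the replicates differed more: the log2 ratio was 1.18, above the upper quartile of all IDR peaks, and the summits were 52 bp apart. The intronic signal was 8.98 times the promoter signal in the pooled list, 12.8 times in replicate 1 and 6.98 times in replicate 3, so the order was the same in both replicates while its size was not. The other 13 pooled peaks of the window had signals of 18.9 to 33.9. The nearest of them, 601 bp away from summit to summit, had 26.5, and the strong peak was 24.8 times as high.

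**Figure D2:**
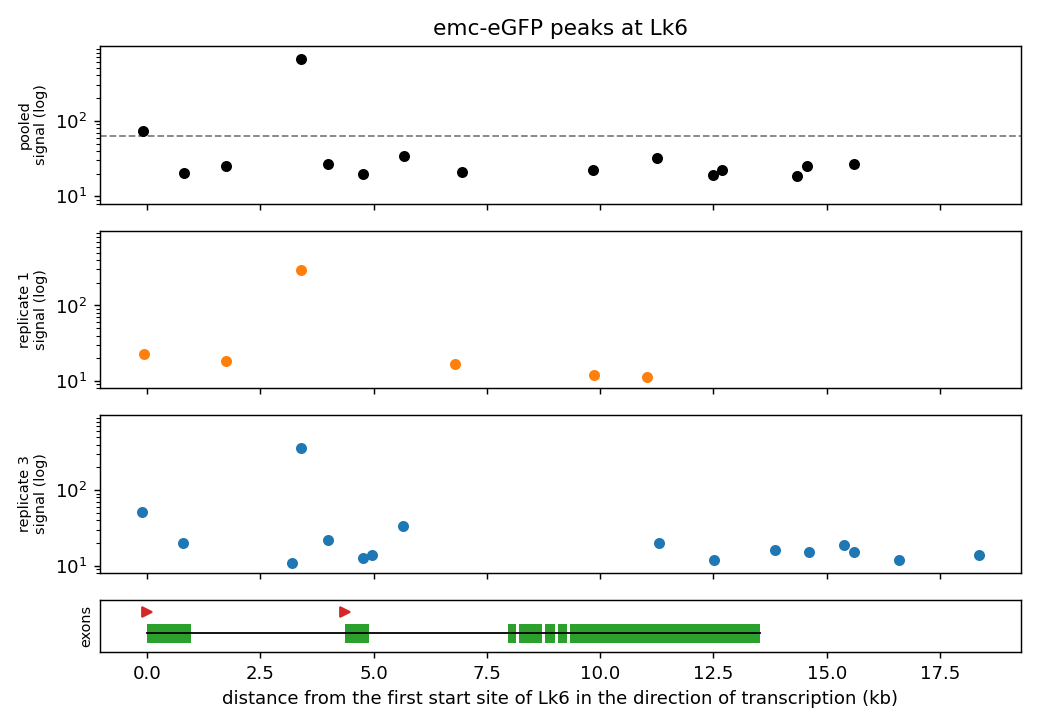
Signal of each peak (log scale, vertical axis) in the pooled list and in replicates 1 and 3 along Lk6, by distance from its first start site in the direction of transcription in kb, with merged exons (bars) and start sites (arrowheads) below. The dashed line is the lowest IDR signal. The intronic peak stands 3403 bp downstream of the first start and before the second, at 657, 293 and 362, and the promoter peak reaches 73.1 in the pooled list.

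The intronic IDR peaks closest to that of Lk6 in signal lay in 4 genes outside the insulin and TOR lists. Just above it were a peak of 871 (rank 3) in ush, whose nearest start is that of cbt, with 419 in replicate 1 and 455 in replicate 3, and a peak of 816 (rank 4) in CG11050, with 280 in replicate 1 and 537 in replicate 3. Just below were peaks of 574 (rank 15) in CG32772 and 567 (rank 16) in CG9663. Lk6 differed from these 4 by between 82.4 and 214 units of pooled signal. The summits of these 4 peaks lay 960 to 1415 bp from the nearest start, with that of Lk6 at 975 bp.

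InR (FBgn0283499, chromosome 3R from 21570248 to 21619321, minus strand), the receptor gene, is the longest of the set at 49074 bp and had 3 IDR peaks and 20 pooled peaks. The strongest IDR peak spanned 131 bp, from 21590783 to 21590913, and had a pooled signal of 188 (rank 208), with 95.4 (rank 156) in replicate 1 and 94.1 (rank 305) in replicate 3. The replicates gave nearly the same signal there, although replicate 3 was the higher at most IDR peaks, and their summits were 45 bp apart. Like the Lk6 peak, it lay inside an intron and upstream of an internal start, in this case 622 bp upstream of the start at 21590191. It fell in intron 1 or 2 of the 3 other transcripts. It and the Lk6 peak were also the only 2 of the 9 IDR peaks narrower than 380 bp, as were 192 of all 1865 IDR peaks (10.3%).

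The other 2 IDR peaks of InR were weaker. At the first start, a peak from 21619226 to 21619605 with its summit 95 bp upstream had 74.1 (rank 1383), with 31.4 in replicate 1 and 41.6 in replicate 3 and summits 8 bp apart. In a long first intron, a peak from 21613262 to 21613641 had 67.0 (rank 1663), with 25.2 in replicate 1 and 50.2 in replicate 3. Its summits in the replicates, 125 bp apart, were the farthest apart of the 9 peaks, and the start nearest to it, 2288 bp away, was that of the non-coding gene lncRNA:CR44034. A pooled peak of 42.8 lay 314 bp from another internal start, at 21592121, below the IDR threshold. For its length InR was not rich in peaks: it had 3.39 pooled peaks per 10 kb, against a median of 3.08 over all genes.

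**Figure D3:**
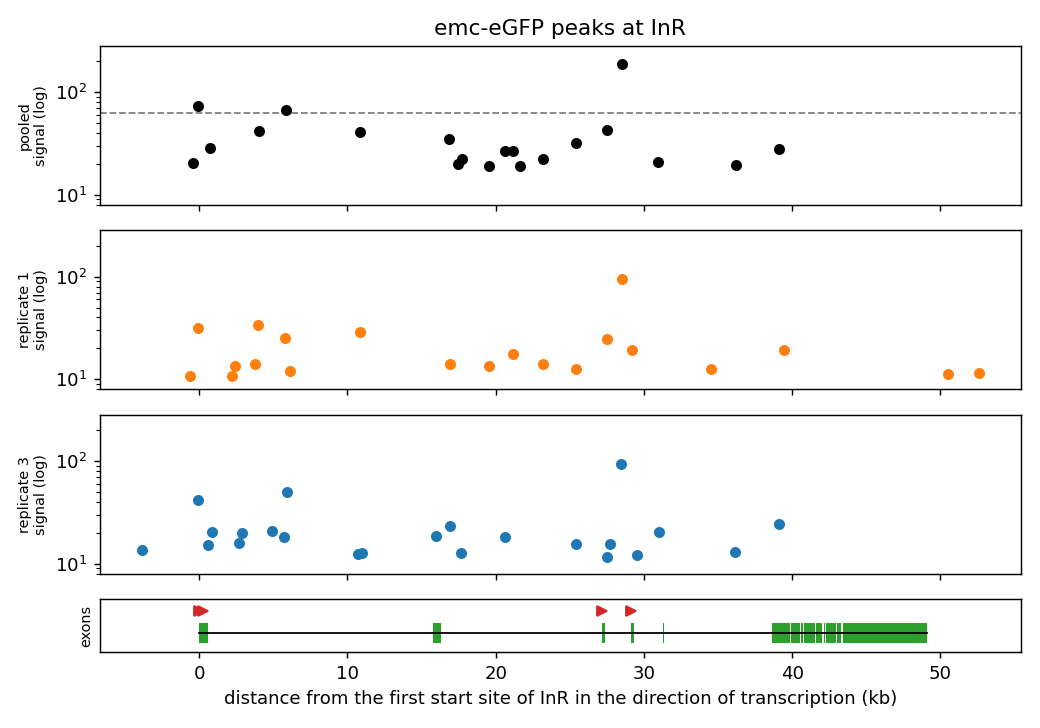
Signal of each peak (log scale, vertical axis) in the pooled list and in replicates 1 and 3 along InR, by distance from its first start site in the direction of transcription in kb, with merged exons (bars) and start sites (arrowheads) below. The dashed line is the lowest IDR signal. The highest peak, 188 in the pooled list, lies 28508 bp downstream of the first start, and the promoter peak has 74.1.

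The adaptor gene chico (FBgn0024248, chromosome 2L from 10242512 to 10247078, minus strand) had no IDR peak. Its highest pooled peak, 27.5 at rank 11571, lay 19 bp from its start and overlapped a peak of 22.3 (rank 5476) in replicate 3 and none in replicate 1. In replicate 1 the highest peak of the window had 18.7 and was nearest to the start of the neighbouring gene bsk, 103 bp away. The start of chico was thus marked in 1 replicate only. The pooled signal there was near the median of the pooled list, 25.2, while the replicate 3 signal was above the median of its own list, 14.6.

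Pi3K92E (FBgn0015279, chromosome 3R from 20628972 to 20634732, minus strand), which encodes the catalytic subunit, had 1 IDR peak, from 20634037 to 20634416. Its pooled signal was 64.4 (rank 1790), with 41.3 (rank 892) in replicate 1 and 25.3 (rank 4190) in replicate 3. The log2 ratio of replicate 3 to replicate 1 was -0.71, against -0.02 at the narrow InR peak and -0.10 at Tor, the other 2 peaks that were higher in replicate 1, although the summits were 2 bp apart. The summit lay 505 bp downstream of the start, in the 5′ UTR of transcript FBtr0334643 and in intron 1 of the other 2 transcripts. It is the lowest of the 9 IDR signals, just above the threshold.

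Akt (FBgn0010379, chromosome 3R from 16099228 to 16105670, plus strand) had 1 IDR peak, from 16097579 to 16097958, which lay outside the gene. Its pooled signal was 72.5 (rank 1434), with 28.9 (rank 1723) in replicate 1 and 39.3 (rank 1757) in replicate 3. The replicates ranked it alike and placed the summit 16 bp apart. The summit was 1459 bp upstream of the start of Akt, inside intron 1 of the neighbouring gene Mhcl and 992 bp from a start of Mhcl, so its assignment to Akt rests on the window alone. Inside Akt, the highest pooled peak had 51.4 (rank 2632), 690 bp downstream of the first start, with 14.6 in replicate 1 and 31.9 in replicate 3, and it was not in the IDR list.

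Tor (annotated as mTor, FBgn0021796, chromosome 2L from 13004480 to 13013197, plus strand) shares its promoter with Vha68-1, which encodes a subunit of the vacuolar proton pump. The starts of Tor and Vha68-1 are 373 bp apart, and the 1 IDR peak, from 13003996 to 13004375, covers the start of Vha68-1 and the 268 bp of that stretch next to it, but not the start of Tor. It had 74.0 (rank 1388), with 37.3 (rank 1087) in replicate 1 and 34.9 (rank 2213) in replicate 3, and the summits were 5 bp apart. The summit lay 79 bp from the start of Vha68-1 and 294 bp upstream of that of Tor, so the peak cannot be given to 1 gene of the pair. Within the whole window this was the only peak of replicate 1, against 10 in replicate 3, and the pooled list held 3 peaks, 1.60 per 10 kb.

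S6k (FBgn0283472, chromosome 3L from 5797549 to 5810931, minus strand) had no IDR peak but many weak ones. The pooled list held 18 in its window, 7.70 per 10 kb, the 97.7 percentile of all genes, whose median was 3.08, and by its highest signal the gene was at the 60.7 percentile. That peak, from 5810586 to 5810965, had 49.0 (rank 2855) with its summit 155 bp from the start, and overlapped a peak of 29.9 in replicate 3 and none in replicate 1. The next, in an intron 3387 bp downstream of the start, had 47.0 (rank 3101), with 27.2 (rank 1934) in replicate 1 and 28.3 (rank 3344) in replicate 3. So the highest peak at the start was carried by 1 replicate, while a nearly equal intronic one was seen in both. The highest S6k peak of replicate 1, 28.0 at rank 1838, overlapped none in replicate 3. Neighbouring pooled peaks can overlap each other, and the window also takes in the starts of CG42272, Tektin-C, kri, mad2 and Bre1. The number of peaks is therefore not a number of separate sites of S6k.

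Thor (FBgn0261560, chromosome 2L from 3478434 to 3479612, plus strand), the repressor of eIF4E, is the shortest gene of the set at 1179 bp and had its IDR peak right at its starts. The peak spanned 3478291 to 3478670, with a pooled signal of 73.5 (rank 1404), 33.8 (rank 1264) in replicate 1 and 38.8 (rank 1808) in replicate 3. Its summits were 1 bp apart, and the pooled summit lay 41 bp from a start. Thor also had 3 of the first 5 peaks of the set below the IDR threshold. Pooled peaks of 56.6 and 52.8 lay 1063 and 2186 bp upstream of its first start, nearer to the start of lncRNA:CR43928. Another of 48.4 lay 180 bp from a Thor start and overlapped the same replicate peaks as the IDR peak, so those replicate values count for both. The replicates overlapped at 4 of the 4 peaks of replicate 1 and 6 of the 7 of replicate 3.

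Ordered by their strongest pooled signal, the genes were Lk6 (657), InR (188), Tor (74.0), Thor (73.5), Akt (72.5), Pi3K92E (64.4), S6k (49.0) and chico (27.5). The pooled values of Tor, Thor and Akt lay within 1.59 units of each other. The 2 replicate signals were 2.48 units apart for Tor, 5.04 for Thor and 10.4 for Akt. Those gaps do not measure the spread of a pooled value, which is about the sum of both replicates. Replicate 3 was also the higher at most IDR peaks. Whether these 3 genes differ was not tested. Among all 13945 genes ranked by strongest peak in the window, Lk6 came at rank 28, InR at 658, Tor at 3251, Thor at 3282, Akt at 3337, Pi3K92E at 3926, S6k at 5487 and chico at 10482. The median over the 8 genes was 73.0, against 39.7 over all genes, whose upper quartile was 70.4. Nearest to the IDR threshold, pooled signals of 72.5 at Akt, 67.0 at InR and 64.4 at Pi3K92E were the last inside, and 56.6 and 52.8 at Thor and 51.4 at Akt the first outside.

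Overlapping peaks of both replicates were found at all 8 genes, against 76.8% of all genes. Of the peaks of replicate 1 at the 8 genes, 36 of 61 (59.0%) overlapped one of replicate 3, against 41.9% over the whole list. In the other direction it was 42 of 88 (47.7%), against 44.3% over the whole list. Agreement varied between genes: S6k had 10 of 13 and 11 of 17 peaks overlapped in replicates 1 and 3, while Lk6 had 3 of 6 and 4 of 16. At Lk6 the share was thus 50% in replicate 1, above the whole list, and 25% in replicate 3, below it. The strong Lk6 peak is counted in both shares. Among the top-ranked 1865 peaks of each replicate, overlapping peaks were found at 4 of the 8 genes (InR, Akt, Thor and Lk6), against 22.1% of all genes, and 5 of the 9 IDR peaks were in both such lists, against 70.1% of all IDR peaks. The summits of the replicates lay within 10 bp at 5 of the 9 IDR peaks, against 23.9% of the IDR peaks found in both lists.

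**Figure D4:**
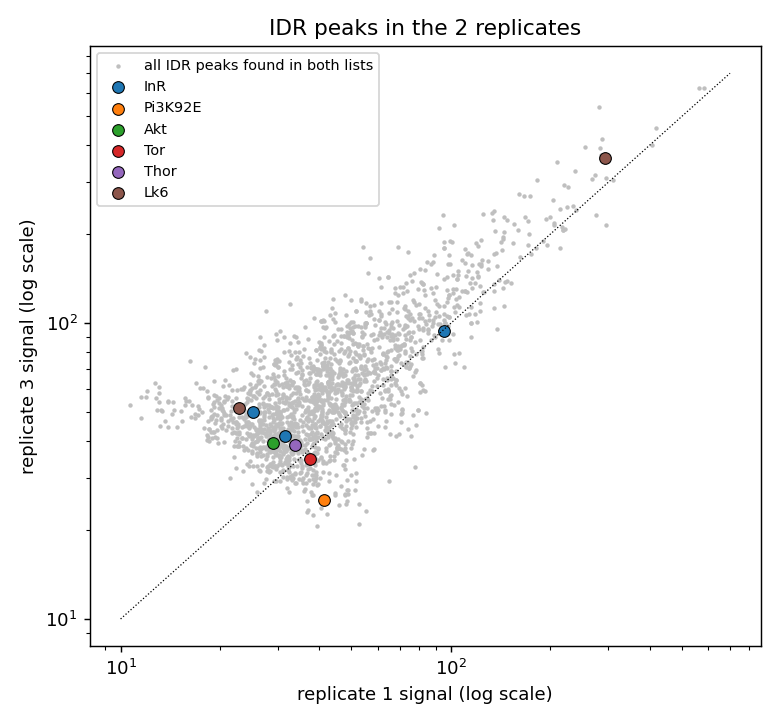
Signal in replicate 1 (horizontal) and replicate 3 (vertical, both log scales) of the 9 IDR peaks at growth genes, coloured by gene, and of all IDR peaks found in both lists in grey, with a dotted line of equal signal. The Lk6 intronic peak is at 293 and 362 near the top of the cloud, and Pi3K92E, at 41.3 and 25.3, lies below the line.

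By position, 4 of the 9 IDR peaks were promoter peaks (summit within 500 bp of a start: InR, Tor, Thor and Lk6), 1 was in a 5′ UTR (Pi3K92E) and 4 were intronic (InR with 2, Akt and Lk6), against 60.9% promoter, 0.536% 5′ UTR and 28.3% intronic among all IDR peaks. The promoter peaks of InR, Tor, Thor and Lk6 had pooled signals of 73.1 to 74.1, a range of 1.04 units, and ranks of 1383 to 1420. The 2 highest of the 9 signals, at Lk6 and InR, were intronic, but the set was chosen with the Lk6 peak already known. The other 2 intronic peaks, 72.5 near Akt and 67.0 at InR, were below all 4 promoter peaks. The promoter signals were below the IDR median of 94.2 and nearly equal in the pooled list, but not in single replicates. They ran from 22.8 (Lk6) to 37.3 (Tor) in replicate 1 and from 34.9 (Tor) to 51.8 (Lk6) in replicate 3. Of the 82 pooled peaks, 37.8% were at promoters, against 27.9% of all pooled peaks, 31.7% in introns, against 32.9%, and 7.32% in 3′ UTRs, against 2.09%. Such shares follow in part from windows that are centred on genes. The 73 pooled peaks outside the IDR list had a median signal of 25.0, against 24.6 over all 27534 such peaks.

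In windows of 201 bp around the IDR summits, both strands searched and overlapping matches counted, an E-box CANNTG was present at 5 of the 9 growth gene peaks, against 63.4% of all IDR windows. Its form CAGCTG was at 0 of the 9, against 10.3%, and CACGTG at 1, the distal intronic peak of InR, against 2.95%. Every CAGCTG or CACGTG match is also a CANNTG match. GAGAG was present at 4 of the 9, against 23.9%, with 3 matches each at the strong Lk6 peak and the distal InR peak, and 3.81% of all IDR windows had 3 or more. GATAAG was at 1, the narrow InR peak printed above, against 10.6%. That peak had 2 matches, and 1.13% of all windows had 2 or more. TATCGATA, the DRE, was at 0, against 5.31%. The windows had a median GC content of 42.3% (range 32.8 to 50.2), against 37.3% over all IDR windows, and the lowest of the 9 was that of the strong Lk6 peak. The matches describe the letters in the window and are not evidence that a factor is bound there.

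Beyond the 8 genes, 64 further genes of the pathway that the annotation matched were described by role, and 31 of them (48.4%) had an IDR peak in the window, against 29.0% of all genes. The shares differed by role: 2 of 10 insulin-like peptides and binding proteins, 9 of 12 genes of the receptor cascade, 12 of 21 genes of the TOR complexes and their regulators, and 8 of 21 genes of TOR outputs and translation control. The median window of these genes was 14.6 kb, against 12.2 kb over all genes. An IDR peak whose nearest start was the gene's own, at any distance, was found at 9 of 12 genes in the receptor cascade, 3 of 21 in the TOR complexes, 4 of 21 in the outputs and 0 of 10 among the ligands, 16 of 64 (25.0%) in all, against 10.2% of all genes. So under the nearest-start rule the count was the same in the receptor cascade and lower in the TOR complexes than under the window rule.

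With only the strongest IDR peak of each of those genes ranked, 3 of the 8 highest were nearest to the pathway gene itself. They were at Shc, an adaptor of receptor tyrosine kinases, with 602 (rank 13), 295 in replicate 1 and 309 in replicate 3, at sgg, the GSK3 kinase, with 176, and at REPTOR, a transcription factor held back by Tor, with 163. At REPTOR the replicates differed, with 43.8 in replicate 1 and 121 in replicate 3. The other 5 were nearest to a neighbouring gene: 589 near slif (nearest Chro), 356 near Sesn (nearest Alg3), 236 near Atg13 (nearest stck), 207 near mio (nearest papi) and 189 near Nprl3 (nearest upSET). Shc was thus the pathway gene whose own promoter came closest in signal to the Lk6 intron. Named after their values were seen, 3 genes (eIF4B, eIF4E7 and Maf1) had no pooled peak in the window.

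**Figure D5:**
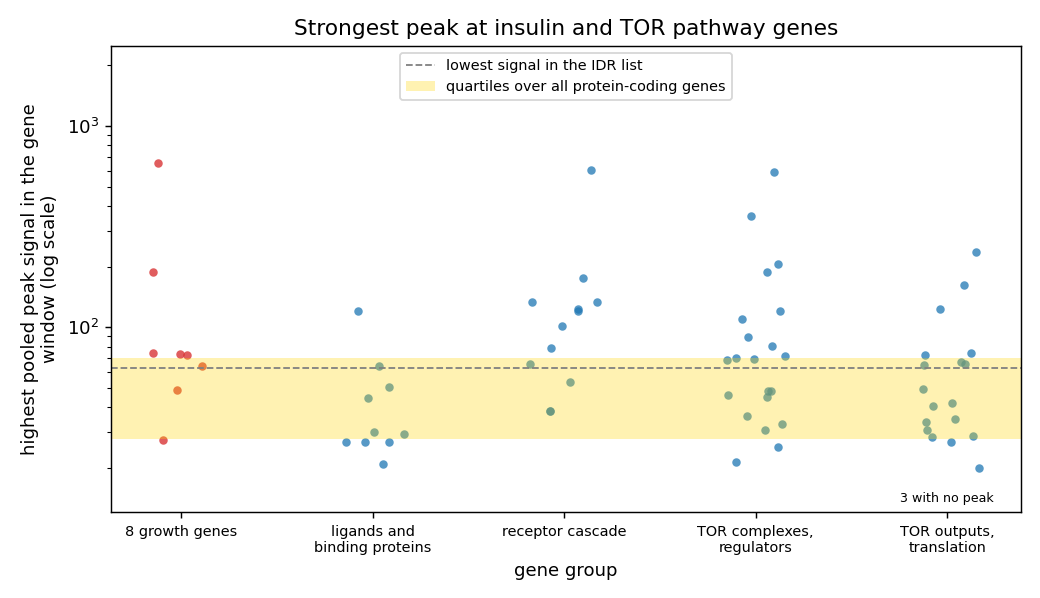
Highest pooled peak signal in the gene window (log scale, vertical axis) for the 8 growth genes and the other pathway genes by role, with the lowest IDR signal of 62.7 as a dashed line and the quartiles of all protein-coding genes, 27.6 and 70.4, as a band. Lk6 at 657 and Shc at 602 are the highest, and most ligand genes lie below the line.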

How the data were processed

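Peaks of emc-eGFP ChIP-seq in whole embryos, replicates 1 and 3, were used as the authors deposited them in dm6, and the dm3 lists were not used here. Each peak carries a signal value deposited by the authors, scaled by their caller, and a deposited −log10 q-value, which served only to break ties in rank. Neither labels nor headers name an aligner, a peak caller, an IDR cutoff or any version. Per the labels, the pooled and replicate lists hold peaks and background made as input for IDR.

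Genes came from Ensembl release 115 (BDGP6, annotation 6.54) and sequence from the RefSeq copy of Release 6. Windows were the gene body and 5 kb on each side, with overlap from 1 bp. A summit within 500 bp of a start was a promoter summit, and the others were classed by UTR, coding or non-coding exon and intron, in that order of priority, or else as intergenic. Motifs were searched in 201 bp. Of 65 further pathway symbols 64 matched (not eEF2K), and 3 symbols were renamed (Tor to mTor, ERK7 to Erk7, maf1 to Maf1). Peaks on the 6 assembled arms and chromosomes were kept, 29399 of the 29400 pooled.

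The 8 genes and the pathway lists were chosen with earlier results of these data known. Named genes were the 8, the genes nearest to their IDR peaks, the 8 pathway genes with the highest IDR signal, and the nearest genes of the 2 intronic IDR peaks just above and the 2 just below that of Lk6. With 1 group no test was made, and peaks and genes are not independent replicates. The counting steps were checked on simulated peaks. Python 3.11.15, numpy 2.4.6, pandas 2.3.3 and matplotlib 3.10.9 were used.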

Additional observations from a re-analysis of the deposited data

How the results depend on the processing

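Of 42 alternative values, 26 kept their count within 1.5 times or their median within the spread. The other 16 are counts that moved further and the Lk6 values of single replicates. The tally does not measure robustness, because single-replicate signals are not on the pooled scale and wider windows can hold more motif matches. With the 932 IDR peaks of higher signal, 2 of the 8 growth genes (InR and Lk6) had a peak in the window and 17 of 64 pathway genes had one, against 17.1% of all genes. Within 1000 bp of a start it was 2 of the 8, against 6.65%. Leaving out each replicate in turn gave 4 to 7 growth genes by window, against 28.9% and 29.0% of all genes, and 3 to 5 within 1000 bp of a start, against 12.19% and 12.04%. The lowest values were without replicate 1, where Pi3K92E and Tor dropped out. Among top-ranked replicate peaks, overlapping peaks were at 4 genes in place of 8, against 22.1% of all genes in place of 76.8%. With no flank 14 pathway genes had an IDR peak in place of 31, against 11.1% of all genes in place of 29.0%, and by nearest start 16, against 10.2%. Single replicates gave the Lk6 peak a signal of 293 to 362, on their own scale, and a rank of 9 to 10. In windows of 50 bp on each side of the summit, an E-box was at 3 of the 9 peaks (38.3% of all IDR windows), GAGAG at 2 (10.5%) and GATAAG at 0 (5.58%). With 250 bp on each side of the summit, an E-box was at 9 (93.0%) and CAGCTG at 1 (27.2%). At that width GAGAG was still at 4 of the 9, now against 52.9% of all IDR windows, and GATAAG at 1 (23.2%). No paired analysis was possible because replicates 1 and 3 belong to 1 group. Read depth is unknown, so a gene without a peak is not shown to lack binding.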
